A study of Mus musculus with 5 samples.

Results

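Of the 48320 DNase I hypersensitive regions listed in double positive (DP) thymocytes, 1039 overlapped a HEB region by at least 1 bp and overlapped no TCF1 region. They are called HEB-without-TCF1 regions here, and the DNaseI regions are called open regions. They made up 2.15% of the open regions (95% Wilson interval 2.02 to 2.28%) and 62.7% (60.3 to 65.0%) of the 1658 open regions that carried HEB, which were 3.43% of all. TCF1 was carried by 6.1% of all open regions: 619 carried both factors and 2328 carried TCF1 without HEB. The other 44334 carried neither. Membership was chosen from the deposited HEB and TCF1 lists, so the presence of HEB and the absence of TCF1 are not results.

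All samples were DP thymocytes of C57/BL6 mice aged 4 to 6 weeks. The labels give no genotype, treatment or sex, and do not say whether animals were pooled. Each assay had 1 sample: DNaseI digestion, or chromatin immunoprecipitation with an antibody to HEB or to TCF1. The labelled cell type was not checked against marker genes, because the positions are in the mouse build mm9 and no annotation of that build was used here. With a single sample per assay, the spread between animals is unknown and no test was run. Intervals are 95% and cover counting error only, and the regions of a list are not independent of each other.

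HEB, encoded by Tcf12, is a basic helix-loop-helix E protein that binds E-box DNA as a dimer with itself or with other E proteins. TCF1, encoded by Tcf7, is an HMG-box protein that binds DNA directly and is known as a partner of beta-catenin in Wnt signalling. Both are known to be needed as thymocytes pass through the double positive stage, when the T cell receptor alpha genes are rearranged. DNase I cuts chromatin where nucleosomes are displaced, which marks promoters, enhancers and insulators alike.

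HEB-without-TCF1 regions were wider and higher-scoring than open regions at large. Their median width was 687 bp (interval 662 to 721, range 201 to 3459), against 315 bp for all open regions. A width of exactly 201 bp, the commonest in the DNaseI list, was found in 74 of them (7.12%), against 28.4% of regions with neither factor. Each region of the DNaseI list has a whole-number score from the authors, with no stated unit. The median DNaseI score of these regions was 42 (40 to 44), with quartiles of 24 and 69 and a range of 8 to 346, against a median of 16 for all open regions. A wide region has more room to overlap a HEB region, so part of this follows from the rule. Score and width went together across the 1039 regions (Spearman's rho 0.93).

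The share of HEB-without-TCF1 regions ran in opposite directions along the DNaseI score, depending on the denominator. Of all open regions with the lowest score of 8, 0.487% (0.343 to 0.690%) carried HEB without TCF1, and of those scoring 151 to 871 this share was 9.07% (6.73 to 12.1%). Among open regions that carried HEB, the share that lacked TCF1 ran the other way. It was 86.1% (31 of 36; 71.3 to 93.9%) at a score of 8, 83.7% (78.8 to 87.7%) at 16 to 30, 65.2% (59.8 to 70.2%) at 51 to 75 and 21.6% (40 of 185; 16.3 to 28.1%) at 151 to 871. Strong open regions thus belonged to this class more often, while strong open regions with HEB mostly had TCF1 too. TCF1 was also commoner among wide open regions at large, and wide regions scored high. TCF1 without HEB was on 0.706% of all open regions of 180 to 250 bp and 18.3% of those above 1500 bp. Both factors were on 0.0784% and 20.4%. Among open regions without HEB, 90 had TCF1 and 12573 lacked it at 180 to 250 bp. Above 1500 bp, 162 had it and 451 lacked it, so the share lacking TCF1 fell with width there too. Whether the fall differs in size between regions with and without HEB was not tested.

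**Figure D1:**
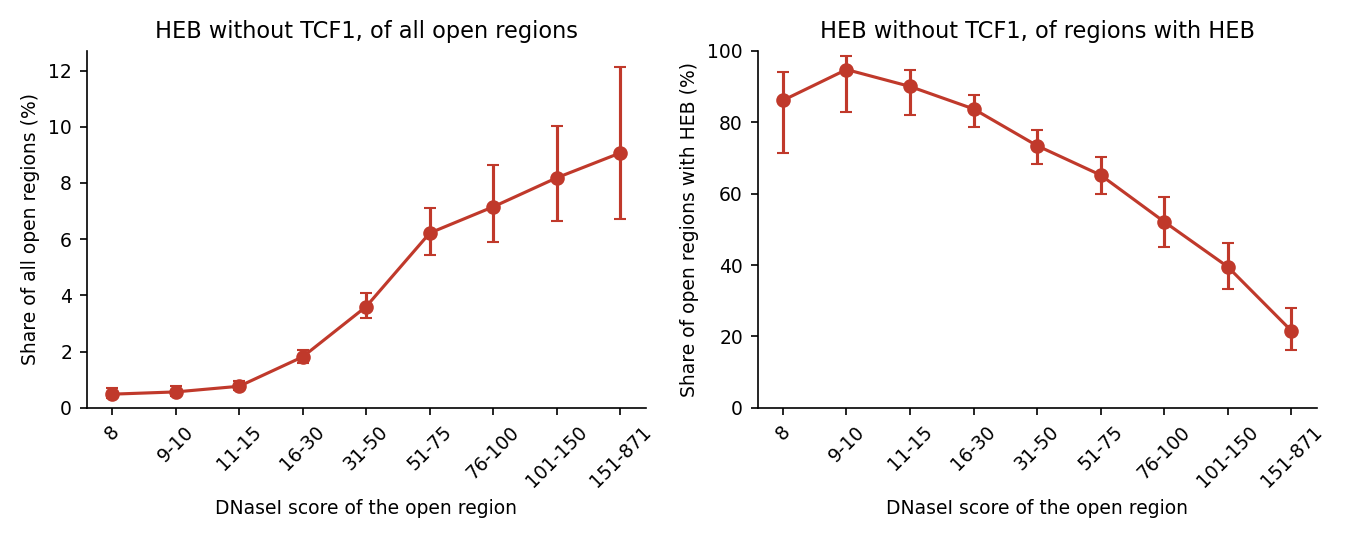
HEB-without-TCF1 regions by the DNaseI score of the open region, as a share of all open regions (left) and of open regions with HEB (right). Points are shares in percent and bars are 95% Wilson intervals; the left panel runs from 0.487% to 9.07% and the right panel ends at 21.6% in the highest score class.

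In every width class above 250 bp, HEB-without-TCF1 regions had a median DNaseI score below those of open regions with TCF1, though not always with separate intervals. Among open regions of 601 to 800 bp, the median score was 41 (39 to 44) for the 190 HEB-without-TCF1 regions, 50 (48 to 53) for the 483 regions with TCF1 without HEB, 52 (47 to 62) for the 81 regions with both and 39 (38 to 39) for those with neither. Among open regions of 1001 to 1500 bp these medians were 78 (75 to 80), 90.5 (88 to 94), 105 (96 to 111) and 72 (71 to 74). The 4 classes overlapped at 180 to 250 bp, where the medians were 9, 9, 8.5 and 9. At 251 to 400 bp the interval of HEB-without-TCF1 regions (median 16, 15 to 17) overlapped that of regions with TCF1 without HEB (17, 16 to 18). Above 1500 bp these intervals overlapped too (median 135, 125 to 150, against 142.5, 130 to 150).

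**Figure D2:**
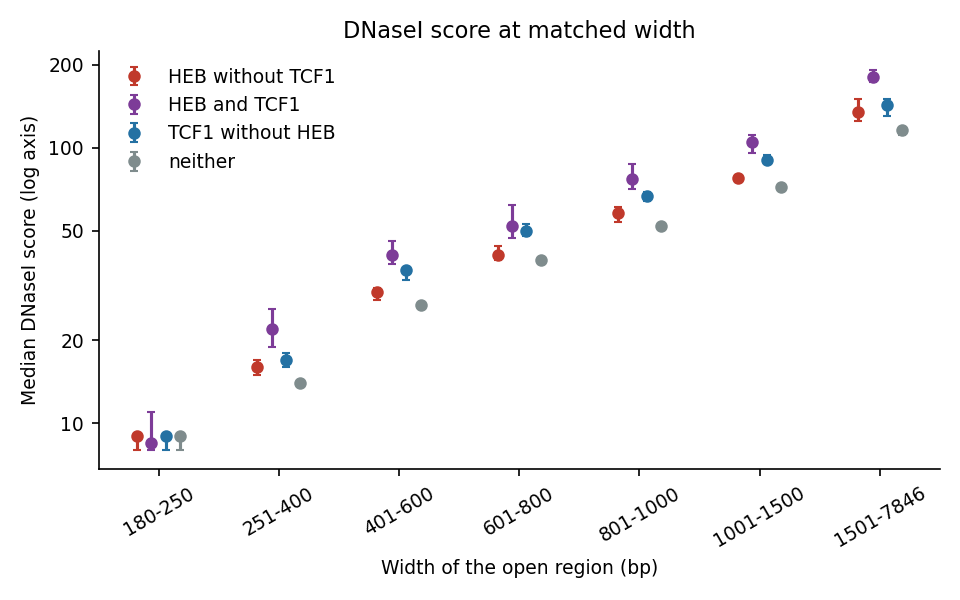
Median DNaseI score (log axis) against width class of the open region for the 4 classes of open regions. Bars are 95% rank intervals of the median; HEB-without-TCF1 regions (red) lie below both classes with TCF1 in every width class from 251 bp up, with a median of 41 against 50 and 52 at 601 to 800 bp. At 251 to 400 bp and above 1500 bp the bars overlap those of TCF1 without HEB.

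The HEB score, a whole number on the scale of the HEB list alone, was between those of the whole HEB list and of open regions with both factors. Taking the highest HEB score in each open region, the median was 13 (12 to 13), the quartiles were 11 and 18 and the range was 9 to 61, against a median of 11 (quartiles 10 and 15) over the HEB list and 16 (15 to 17) in open regions with both factors. A score of 10 or less, near the lowest value of the HEB list, was found in 239 of the 1039 regions, or 23.0% (20.5 to 25.7%), against 11.6% (9.34 to 14.4%) of regions with both. Scores above 30 were found in 63, or 6.06% (4.77 to 7.68%), against 94 of 619, or 15.2% (12.6 to 18.2%), of regions with both and 4.22% of all HEB regions. Across the 1039 regions the HEB score was only weakly related to the DNaseI score (Spearman's rho 0.24), which is a description of regions from 1 pair of lists.

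TCF1 was lacking less often at high HEB scores in each width class. In open regions of up to 600 bp with HEB, TCF1 was lacking in 85.7% (80.6 to 89.6%) at HEB scores of 9 to 11, in 75.8% (68.5 to 81.8%) at 12 to 16 and in 68.3% (60.8 to 75.01%) at 17 to 59. At 601 to 1000 bp these shares were 72.6% (65.4 to 78.8%), 68.7% (61.3 to 75.2%) and 60.7% (53.3 to 67.6%). Above 1000 bp they were 55.6% (46.9 to 64.1%), 47.6% (40.5 to 54.7%) and 38.5% (33.1 to 44.3%). The share without TCF1 was thus lowest in wide open regions with a high HEB score. The intervals of the lowest and highest HEB score classes overlapped at 601 to 1000 bp and not at the other widths.

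The highest HEB scores without TCF1 came from open regions of different size. The first was on chromosome 8 from 123219623 to 123221492 (HEB score 61), an open region of 1870 bp with a DNaseI score of 130 whose nearest TCF1 region was 151234 bp away. A region on chromosome 6 from 87177548 to 87178386 had a HEB score of 59 and a DNaseI score of 47, and its nearest TCF1 region was 74379 bp away. The region on chromosome 11 from 67939580 to 67940115 also had a HEB score of 59, in only 536 bp of open chromatin with a DNaseI score of 36. A HEB score of 58 was found on chromosome 8 from 125224705 to 125226983 (DNaseI score 217) and on chromosome 17 from 85189942 to 85190926 (DNaseI score 92). The next were on chromosome 11 from 116747264 to 116748485 (HEB score 55), chromosome 13 from 64511903 to 64512561 (55) and chromosome 9 from 112119594 to 112120399 (51). A HEB score of 49 was found on chromosome 5 (122760513 to 122763556) and chromosome 11 (71483290 to 71484814), and these came ahead of a region on chromosome 6 with the same HEB score by their DNaseI scores of 198 and 109 against 26. Among these 10 the shortest gap to a TCF1 region was 9856 bp, at the region on chromosome 8 from 125224705.

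The 5 HEB-without-TCF1 regions with the highest DNaseI scores had HEB scores of 11 to 22, far from the highest HEB scores. The highest DNaseI score was 346, on chromosome 19 from 53496921 to 53500299, where the HEB score was 17. The region on chromosome 1 from 130487270 to 130489785 followed with a DNaseI score of 328 and a HEB score of 11, and its nearest TCF1 region was 760190 bp away. The other three were chromosome 5 from 121070607 to 121073018 (DNaseI score 286, HEB score 22), chromosome 6 from 71322017 to 71325475 (283 and 17) and chromosome 15 from 76025557 to 76028167 (267 and 19). The region on chromosome 6 had a TCF1 region 2249 bp away and another HEB region 606 bp away.

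A single HEB region was the rule. Exactly 1 HEB region was found in 1022 of the 1039 open regions and 2 in the other 17, or 1.64% (1.02 to 2.60%), against 4.20% (2.88 to 6.08%) of regions with both factors. These shares were not weighted by width, and regions with both factors were wider (median 1053 bp against 687 bp). The 17 open regions with a pair were wide, with a median of 1189 bp (851 to 3044), and their median DNaseI score was 93. The centres of the paired HEB regions lay 410 to 1448 bp apart (median 658), and 2 of the 17 pairs lay within 500 bp. Ranked by the higher HEB score of the pair and then by DNaseI score, the first was the region on chromosome 5 from 122760513, with HEB scores of 49 and 24. The next were chromosome 11 from 5399989 to 5401676 (34 and 26), chromosome 10 from 59413039 to 59413992 (31 and 18), chromosome 9 from 44928628 to 44930891 (27 and 13) and chromosome 2 from 33672551 to 33674493 (26 and 22). Pairs on chromosome 11 from 72822505 to 72823635 (19 and 26) and chromosome 16 from 93907922 to 93908881 (26 and 24) tied with the last in HEB score and had lower DNaseI scores.

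HEB lay near the middle of these open regions. Of the 1056 HEB regions in them, 781, or 74.0% (71.2 to 76.5%), lay wholly inside the open region, and 65 (6.16%) had their centre outside it. The centre of the HEB region was a median of 117 bp (104.5 to 124) from the centre of the open region, with quartiles of 53 and 213 bp, and 45.6% (42.7 to 48.7%) were within 100 bp. Some closeness follows from the overlap itself, which holds the centre within the open region or just beside it. In open regions of 401 to 1000 bp, where there was more room, the median was 97.8 bp (90.5 to 109.5) for HEB without TCF1, 101 bp (90 to 114.5) for HEB in regions with both factors and 88.5 bp (81.5 to 94) for TCF1 in regions without HEB. The 3 intervals overlapped. HEB regions lying wholly inside had a median HEB score of 13 (13 to 15), and the 275 that lay partly outside had 12 (11 to 12).

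**Figure D3:**
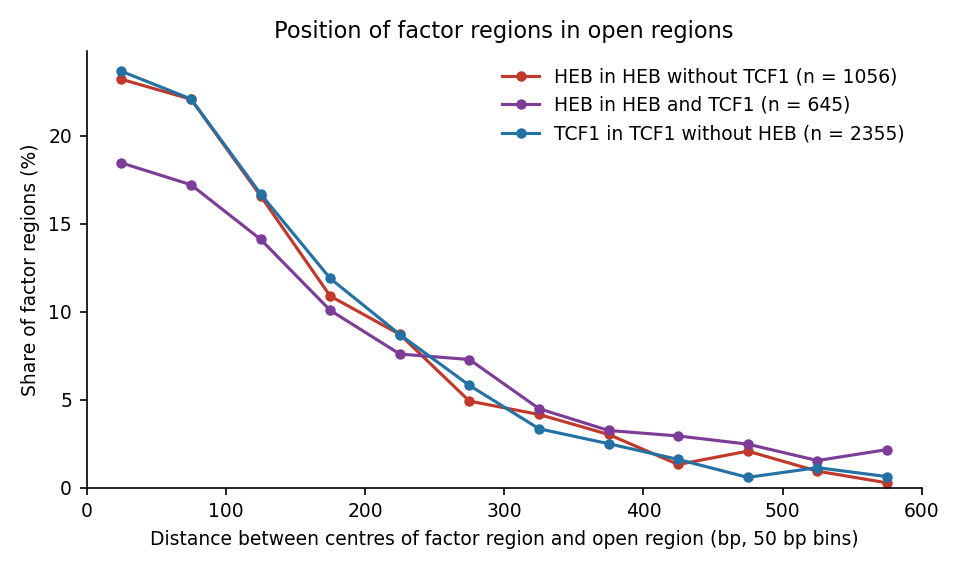
Distance in bp from the centre of a factor region to the centre of its open region, in bins of 50 bp up to 600 bp, as a share of the factor regions of each class. The HEB-without-TCF1 curve (red, 1056 HEB regions) is highest in the first bin and nearly overlies that of TCF1 without HEB.

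TCF1 regions just beside these regions were few, at a share not below that beside open regions with neither factor. A TCF1 region lay within 500 bp of 12 of the 1039, or 1.15% (0.662 to 2.01%), against 0.862% (0.780 to 0.952%) of open regions with neither factor. It lay within 1 kb of 33, or 3.18% (2.27 to 4.43%), against 2.49% (2.35 to 2.64%). The median gap to the nearest TCF1 region was 51775 bp (43618 to 59102). Within 10 kb the share was 21.0% (18.6 to 23.6%), against 15.5% (15.2 to 15.9%) of open regions with neither factor and 15.9% of all open regions. That was 5.45 points (3.06 to 8.06) above regions with neither factor, which had 16.4% when weighted to the same widths. Regions with both factors had 28.3% (24.9 to 31.9%), and HEB without TCF1 minus both was -7.29 points (-11.7 to -3.02). Weighted to the same widths, regions with both factors had 26.5%. Regions with TCF1 without HEB had 16.8% (15.3 to 18.4%), or 17.2% when weighted. HEB without TCF1 minus that class, unweighted, was 4.19 points (1.34 to 7.15). The share for HEB without TCF1 was 10.9% when TCF1 regions at or below the median TCF1 score were left out, an alternative added afterwards. That setting counts 1329 regions as HEB without TCF1 and leaves fewer TCF1 regions to lie near. The other classes were not computed under it.

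The rule turns on few bases in a small number of cases. In 7 regions HEB overlapped by 2 to 20 bp, with DNaseI scores of 8 to 27, and 7 open regions with neither factor missed a HEB region by 7 to 15 bp, with DNaseI scores of 9 to 55. One region on chromosome 1, from 135956561 to 135958240, abutted a TCF1 region with a gap of 0 bp. The next smallest gaps to TCF1 were 67 bp (chromosome 16 from 10667993 to 10669012) and 87 bp (chromosome 7 from 90808893 to 90810233).

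Other open regions were common around HEB-without-TCF1 regions. Another open region lay within 10 kb of 85.1% (82.8 to 87.1%) of them, against 75.4% (73.6 to 77.1%) of regions with TCF1 without HEB, 78.6% (78.2 to 79.0%) of regions with neither and 78.7% of all. Regions with both factors had 87.4% (84.6 to 89.8%), but they were wider, with a median of 1053 bp. Weighted to the widths of HEB-without-TCF1 regions they had 80.0%. The difference from TCF1 without HEB was 9.65 points (6.79 to 12.4). Within 1 kb the shares were 46.1% (43.1 to 49.1%) and 39.7% (37.8 to 41.7%), a difference of 6.37 points (2.75 to 9.99), and 40.3% of all open regions had such a neighbour. Regions with both factors had 54.8% (50.8 to 58.6%), and HEB without TCF1 minus both was -8.66 points (-13.6 to -3.69). Weighting by width gave regions with both factors 44.5%, so their higher share did not remain after weighting. Among DNaseI scores above the list median, the share of HEB-without-TCF1 regions with an open neighbour within 1 kb was 26.9%. HEB without TCF1 and TCF1 without HEB had nearly the same median width (687 and 677 bp). With widths weighted to the HEB-without-TCF1 regions, the values for TCF1 without HEB were 75.4% within 10 kb and 39.9% within 1 kb. For regions with neither factor the weighted values were 80.4% within 10 kb and 43.4% within 1 kb. The weighted 43.4% lay inside the interval of HEB-without-TCF1 regions within 1 kb (43.1 to 49.1%).

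The share was above that for TCF1 without HEB in every width class above 250 bp, but the intervals overlapped at 251 to 400 bp, at 601 to 800 bp and above 1500 bp. At 1001 to 1500 bp, 94.3% (89.8 to 96.9%) of HEB-without-TCF1 regions had an open neighbour within 10 kb, against 81.9% (77.8 to 85.4%) with TCF1 without HEB and 83.1% (81.1 to 84.8%) with neither. At 180 to 250 bp the order was different: 59.5% (48.1 to 69.9%) of the 74 HEB-without-TCF1 regions had such a neighbour, close to the 60.0% (49.7 to 69.5%) for TCF1 without HEB and below the 78.5% (77.7 to 79.2%) for neither. At 251 to 400 bp the share for HEB-without-TCF1 regions, 75.1% (68.1 to 81.1%), was also below the 77.8% (77.2 to 78.5%) for neither, but the intervals overlapped. Open regions of 180 to 250 bp with a factor thus lacked a near neighbour more often than those of the same width without one.

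**Figure D4:**
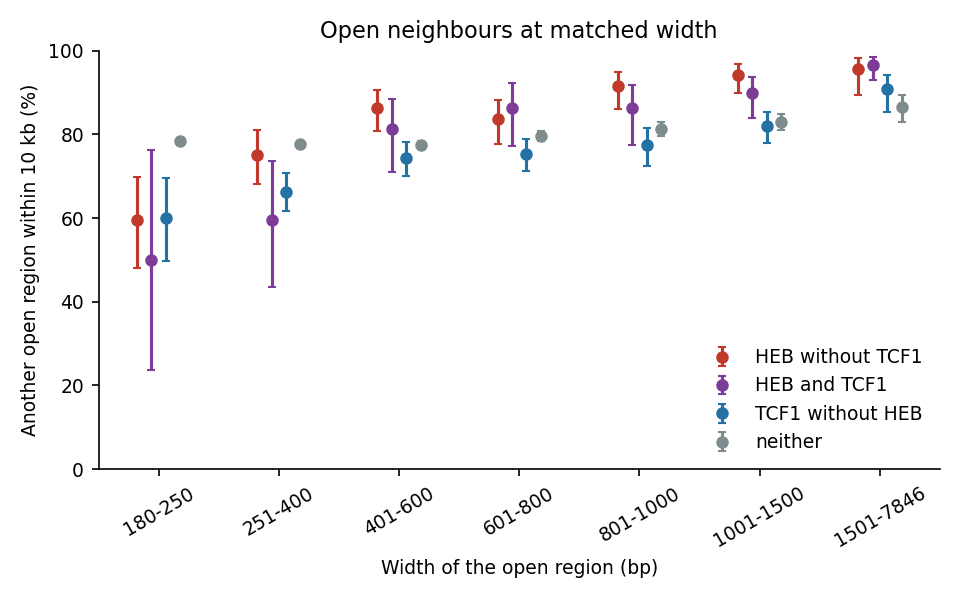
Share of open regions with another open region within 10 kb, by width class, for the 4 classes; bars are 95% Wilson intervals. HEB-without-TCF1 regions (red) go from 59.5% at 180 to 250 bp to 94.3% at 1001 to 1500 bp, above TCF1 without HEB in every width class over 250 bp.

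HEB-without-TCF1 regions also had more HEB around them. A further HEB region, outside the open region itself, lay within 10 kb of 22.7% (20.3 to 25.4%), against 11.6% (10.4 to 13.0%) of regions with TCF1 without HEB, 13.0% (12.7 to 13.3%) of regions with neither and 13.3% of all open regions. The difference from TCF1 without HEB was 11.1 points (8.27 to 14.0), and weighting by width left that class at 11.9%. The 25.2% (21.9 to 28.8%) of regions with both factors was not separated from it, with a difference of -2.49 points (-6.81 to 1.71). When the next open region lay within 1 kb, it was itself HEB without TCF1 in 29 of 479 cases, or 6.05% (4.25 to 8.56%), against 2.27% (1.49 to 3.45%) beside TCF1 without HEB and 2.40% (2.18 to 2.63%) beside neither. Beside regions with both factors it was 3.24% (1.82 to 5.72%), an interval that overlaps that of HEB without TCF1. It carried TCF1 without HEB in 4.80% (3.22 to 7.10%), the same as the 4.80% beside neither.

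Some HEB-without-TCF1 regions shared a 100 kb window. Open regions of all kinds lie close together, with another within 10 kb for 78.7% of them, and grouping beyond that was not tested. On a fixed grid of 100 kb windows, 719 windows held 1 of them, 104 held 2, 26 held 3, 7 held 4 and 1 held 6. The window with 6 was on chromosome 8 from 125200001 to 125300000, among 41 open regions, with HEB scores of 16 to 58 (median 26) and DNaseI scores of 30 to 217 (median 44.5). It also held 1 region with both factors and 1 with TCF1 without HEB. Of the 7 windows with 4, those with the highest summed HEB scores are given. The window on chromosome 8 from 123200001 to 123300000 held 4 among 20 open regions, no TCF1 region of any kind, and HEB scores of 12 to 61 (median 15.5). The window on chromosome 5 from 122700001 to 122800000 held 4 among 22 open regions, with HEB scores of 15 to 49, beside 3 open regions with TCF1 without HEB.

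At the other end, 19 HEB-without-TCF1 regions had no open region within 100 kb. Their median width was 201 bp and their median DNaseI score 10 (9 to 26), and their median HEB score was 18 (11 to 31), against 13 (12 to 13) for the 479 with an open neighbour within 1 kb. HEB scores above 30 were found in 5 of the 19, or 26.3% (11.8 to 48.8%), against 28 of 479, or 5.85% (4.07 to 8.32%). There was no steady trend with isolation, since at gaps of 10 to 100 kb the median HEB score was 12 and 5.15% (2.52 to 10.2%) scored above 30. Isolated regions with both factors had a median HEB score of 16 (13 to 37), with 2 of 9 above 30. The 5 HEB-without-TCF1 regions above 30 were all 201 bp wide, the commonest width in the DNaseI list. They were chromosome 6 from 3151490 to 3151690 (HEB score 49, DNaseI score 26), chromosome 13 from 19090597 to 19090797 (41 and 10), chromosome 16 from 83399777 to 83399977 (37 and 12), chromosome 6 from 22609009 to 22609209 (36 and 13) and chromosome 12 from 111059293 to 111059493 (31 and 8). They were singled out after their values were seen. Their HEB score and isolation were what selected them. Their DNaseI scores were 8 to 26, and all but the 26 lay below the median of 16 over all open regions.

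The share of open regions with HEB without TCF1 was similar on most autosomes, at 2.17% (2.04 to 2.30%) over all of them. It ran from 1.67% (1.10 to 2.55%) on chromosome 18 and 1.72% (1.31 to 2.25%) on chromosome 4 to 2.76% (2.22 to 3.43%) on chromosome 1, and the intervals of the outermost chromosomes overlapped. Chromosomes 2 and 8 were near the top, at 2.71% (2.25 to 3.25%) and 2.66% (2.10 to 3.37%), and their shares of TCF1 without HEB were 4.08% and 3.91%, below the 4.82% of all open regions. Chromosome 1 had the highest shares of both, with 7.04% (6.15 to 8.04%) for TCF1 without HEB. The X chromosome had the lowest share of any with more than 4 open regions, at 1 of 409, or 0.244% (0.0432 to 1.37%). That interval lay below the one over all autosomes and overlapped those of chromosomes 4, 10 and 18. TCF1 without HEB was found on 17 of the same 409, or 4.16% (2.61 to 6.56%), within the range of the autosomes. The X region lay from 12923275 to 12925001, with a DNaseI score of 126 and a HEB score of 12. It was the only open region of X with HEB, so none there carried both factors, against 1.28% of all open regions. The low share on X thus held for HEB with or without TCF1. None of the 4 open regions of the Y chromosome carried HEB.

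**Figure D5:**
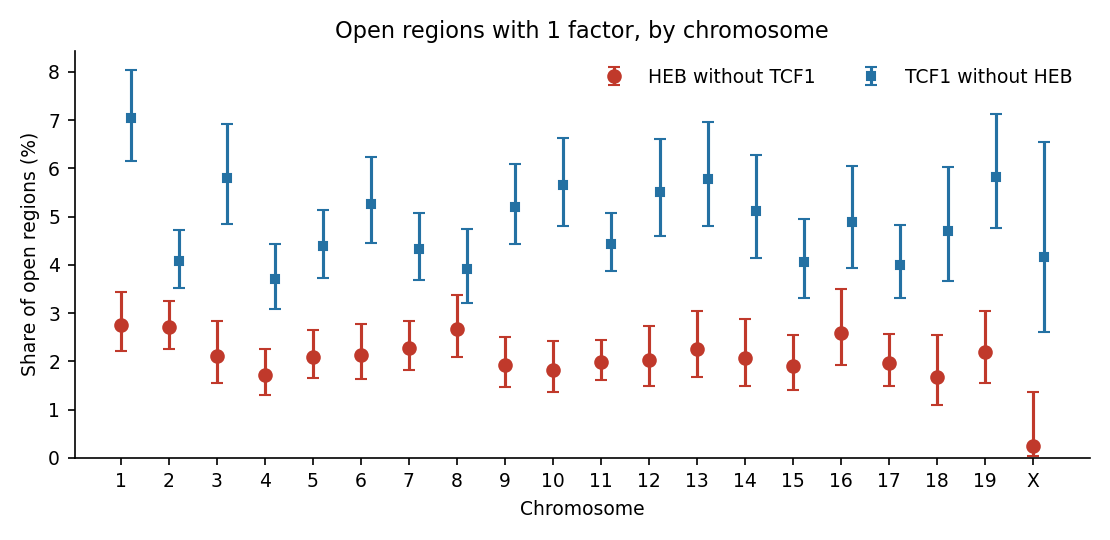
Share of open regions with HEB without TCF1 (red circles) and with TCF1 without HEB (blue squares) on each chromosome, with 95% Wilson intervals. On X the first share is 0.244% (1 of 409) and the second is 4.16%.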

How the data were processed

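DNaseI, HEB and TCF1 lists were used, from 1 sample each; the histone samples were not analysed here. The whole-number score per region was deposited by the authors with no unit, and was compared only within its list. The build is mm9 and the tool HOMER 6.1, per the submitters' processing notes, without the step it served. Aligner, thresholds, controls and depth: not given in the sources used here. Positions count from 1.

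Open regions were classed by overlap of at least 1 bp. Gaps are distances between region edges. Shares carry Wilson intervals, differences of shares Newcombe intervals and medians rank intervals, all at 95%. For width weighting, values of other classes in 7 width classes were averaged with the members' counts. Named regions are the 10 with the highest HEB score, the 5 with the highest DNaseI score, the 5 with the most HEB regions and the 3 windows of 100 kb with the most members. Ties were broken by DNaseI score for the first, by HEB score and then DNaseI score for the third and by summed HEB score for windows, then by position. The members and the quantities described were chosen with earlier results of these data known. Planned shares near gene starts and with E-boxes were not run, because no mm9 genome or annotation was used here, and no sequence is printed for the same reason. Overlap, distance and interval code was tested on simulated lists. Tools were Python 3.11.15 with scipy 1.17.1, statsmodels 0.14.6, numpy 2.4.6, pandas 2.3.3 and matplotlib 3.10.9.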

Additional observations from a re-analysis of the deposited data

How the results depend on the processing

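Of 72 values (8 results under 9 alternatives), 55 stayed within the interval of the reported value, or within 1.5 times the count, and 17 did not. These counts do not measure robustness, because the alternatives overlap and some outcomes follow from the filter. Autosomes alone kept 1038 of the 1039 regions, and a cut on a score or width raises the median of that same score or width. With HEB scores above the list median, 650 regions remained, with a median width of 756.5 bp, DNaseI score of 48.5 and HEB score of 17. With DNaseI scores above the list median, the median width was 786 bp and the DNaseI score 50, HEB lay 127.5 bp from the centre, and 26.9% had another open region within 1 kb; that list holds fewer possible neighbours. With the factor centre, or at least 50% of the factor region, inside the open region, HEB lay 104 bp from the centre. Both of these alternatives kept 984 regions and gave the same value for all 8 results. With no TCF1 region within 1 kb, 18.4% had one within 10 kb, which follows from leaving out the 33 regions that had one within 1 kb. Alternatives chosen after seeing the data were TCF1 scores above the list median (width 740 bp, DNaseI score 49, TCF1 within 10 kb in 10.9%) and open regions wider than 201 bp (727 bp, 45, and another open region within 1 kb in 37.9%). No paired analysis was possible because each assay has 1 sample. Absence of TCF1 means absence from the deposited list, since the depth is unknown.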

Other observations

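HEB-without-TCF1 regions had open neighbours within 1 kb on both sides in 102 of 1039 cases, or 9.82% (8.15 to 11.8%), against 6.87% (5.91 to 7.97%) of regions with TCF1 without HEB, 6.72% (6.49 to 6.96%) of regions with neither factor and 15.3% (12.7 to 18.4%) of regions with both. These shares were not weighted by width. The HEB scores had gaps: no region of the HEB list scored 14, 21, 28, 35, 43, 50 or 57, while all values between were present from 9 up to 57.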
